A study of Homo sapiens with 4 samples.

Results

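Many protein-coding genes also give rise to transcripts annotated as noncoding, and 394 of the 17627 poly(A) site clusters (PACs) found by PAS-seq lay in their exons. PAS-seq is 3′ end sequencing, in which each tag marks a cleavage and polyadenylation site and neighbouring sites form a cluster. A member was a cluster whose dominant site, taken from the library with its highest level, fell in a same-strand exon of a noncoding transcript of a GENCODE 44 protein-coding gene. The site also had to lie outside every same-strand exon of a protein_coding transcript. The 394 members belonged to 370 genes, and 22 of these genes held more than 1 member. The rule asked for a value above 1 in any library, which all listed clusters met, and the member of lowest maximum was that of DMXL2 at 1.81 RPM. RPM is the number of tags of a cluster per 1000000 tags of its library.

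The cells were the esophageal squamous cell carcinoma (ESCC) lines KYSE30 and TE-1, each given either 20 mM l-lactate for 24 h or PBS as control, with 1 library for each line and treatment. The controls are named after KYSE30 and TE-1 in their titles, although their cell line fields read KYSE32 and TE-3. The control and l-lactate libraries of a line were alike over the 17627 clusters, with a Pearson r of 0.965 in KYSE30 and 0.967 in TE-1 on the log2(RPM + 1) scale, against 0.702 to 0.711 between the lines. Clusters of the epithelial keratin gene KRT8 summed to 969 to 2229 RPM in the 4 libraries and those of EPCAM to 30.7 to 635 RPM. No cluster of KRT5 or TP63, which mark squamous cells, was among those analysed here. Libraries held 7174991 to 10393799 tags, of which 92.5% to 93.1% lay in listed clusters, and a cluster was listed from about 1 RPM, that is from 8 to 11 tags. A cluster that is not listed in a library may therefore still have tags there. Levels are relative to all tags of the library, so a change in the number of cells or in the RNA per cell cannot be seen from them.

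GENCODE divides noncoding transcripts of coding genes by how they fail to encode the protein. A retained-intron transcript keeps intron sequence, a nonsense-mediated decay (NMD) transcript carries an early stop codon that marks it for degradation, and a transcript with an undefined coding sequence is an incomplete or processed form with no assigned reading frame. Such forms can end at their own poly(A) site, within an intron of the coding transcripts or in an exon beyond their last exon. The cleavage machinery recognises an AAUAAA or related hexamer shortly before the site. Cleavage factor Im, whose small subunit is NUDT21, binds UGUA further upstream.

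Members fell into 4 places that were defined after the positions had been seen. The first held 79 members within 24 nt past the end of a protein_coding transcript of the gene, termed here members at a coding end, and 48 of them lay exactly 1 nt past it. The second held 226 members within introns of the coding transcripts, and the third held 79 members more than 24 nt past the last coding end, at a median distance of 4647 nt and at most 69427 nt. The other 10 included 9 in genes without a protein_coding transcript in the annotation. The nearest noncoding transcript had an undefined coding sequence for 197 members, was a retained intron for 124 and an NMD transcript for 68, and was of another type for the remaining 5.

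The 30 nt that end at the dominant site are shown for members at a coding end, far past it and in introns, to compare the poly(A) signals of the 3 places. They are written 5′ to 3′ as DNA of the transcribed strand, read from GRCh38, and capitals mark the poly(A) hexamer. RPS25, RPL10A and GNG5 had the highest levels at a coding end. TAF1D, SFPQ and HNRNPU ended in separate exons far past it, and CSNK2A2, HPS1, PDE10A and RAI1 ended in introns. PYGL, EGFR and ANKS6 are intron members discussed with the changes or gene lists, and NUB1 had no hexamer in these 30 nt, while its AAUAAA lay within 50 nt.
RPS25, chr11:119015714-119015743, minus strand: catttggaaaAATAAAactttattaaatca
RPL10A, chr6:35470752-35470781, plus strand: gcacatttgAATAAAttctattaccagttc
GNG5, chr1:84498324-84498353, minus strand: gcatacAATAAAacttagtatgaaactttt
TAF1D, chr11:93730281-93730310, minus strand: catatacacaATTAAAaaacctttacacta
SFPQ, chr1:35176380-35176409, minus strand: ttctcgttAATAAAggcattatcctaatta
HNRNPU, chr1:244840646-244840675, minus strand: cttggttcatAATAAAgcaagaattattta
CSNK2A2, chr16:58159873-58159902, minus strand: actttgaatcAATAAAttaacagtttttca
HPS1, chr10:98441906-98441935, minus strand: aactttttAATAAActgccaaacttttcca
PDE10A, chr6:165921318-165921347, minus strand: atttgctgaataAATAAAccaccacctcca
RAI1, chr17:17685021-17685050, plus strand: tttgccAATAAAtgctgattgctgccgtca
PYGL, chr14:50923260-50923289, minus strand: aataaaataaaAATAAAagtttgcagttta
EGFR, chr7:55045211-55045240, plus strand: tcactaagatttAATAAAgtttattaatca
ANKS6, chr9:98783572-98783601, minus strand: ctcctgtatgaAGTAAAcattggttattca
NUB1, chr7:151361218-151361247, plus strand: ataaatgagttgcttcactatcaccctcca

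In 13 of these 14 sequences a hexamer was found, with its last base 12 to 18 nt before the site. It was AAUAAA except in TAF1D, which had AUUAAA, and ANKS6, which had AGUAAA. Over all members, 280 of 394 (71.1%, Wilson 95% interval 66.4 to 75.3) had AAUAAA in the 50 nt that end at the site. The share was 66.7% in the 13590 clusters of 3′ UTRs and 66.4% over all clusters with sequence. The difference of 4.37 percentage points from 3′ UTR clusters had an interval of -0.36 to 8.70, which includes 0. AAUAAA or AUUAAA preceded 85.8% of members and 83.5% of 3′ UTR clusters, and any of 12 known hexamers preceded 97.0% and 95.6%. The signal stood where it does in 3′ UTRs, since the median distance from its last base to the site was 16 nt in members and 16 nt in 3′ UTR clusters. By place, AAUAAA preceded 73.4% of members at a coding end, 71.7% of those in introns and 65.8% of those far past the end. By transcript type, it preceded 72.6% of retained-intron members (64.1 to 79.7), 72.6% of members with an undefined coding sequence (66.0 to 78.3) and 64.7% of NMD members (52.8 to 74.998), and these intervals overlap.

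**Figure D1:**
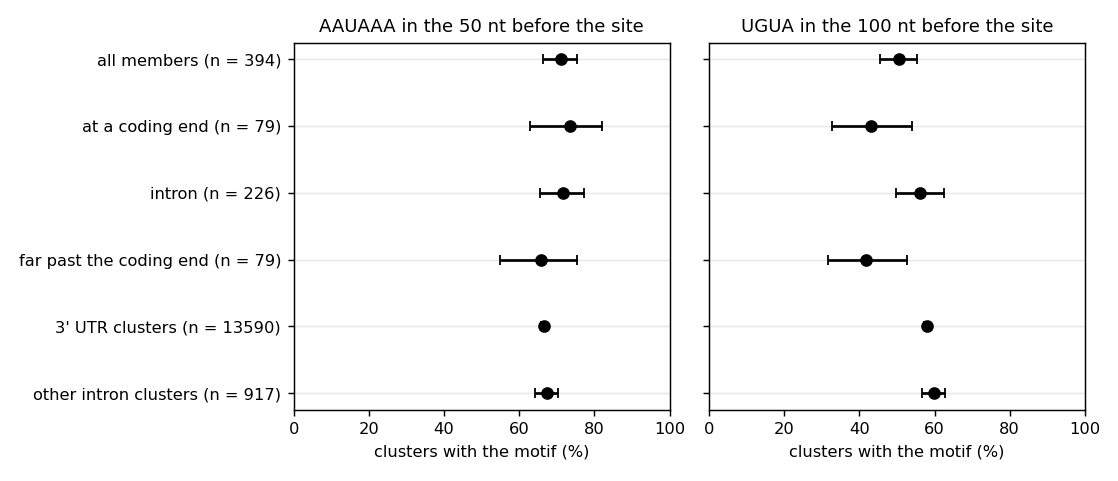
Share of clusters with AAUAAA in the 50 nt before the dominant site (left) and with UGUA in the 100 nt before it (right), in percent, by place of the members and for 3′ UTR and other intron clusters. Bars are Wilson 95% intervals for counting error, and members in introns and far past the coding end held AAUAAA in 71.7% and 65.8% and UGUA in 56.2% and 41.8%.

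UGUA was less frequent before members than before 3′ UTR clusters. It was present in the 100 nt before the site in 199 of 394 members (50.5%), in 58.1% of 3′ UTR clusters and in 57.0% of all clusters, on the transcribed strand only. The difference from 3′ UTR clusters was -7.57 percentage points (Newcombe 95% interval -12.6 to -2.59). By place, 56.2% of members in introns had UGUA, which is -1.88 points from 3′ UTR clusters with an interval of -8.46 to 4.48. At a coding end 43.0% had it, a difference of -15.0 points (-25.4 to -4.02), and far past the end 41.8% had it, a difference of -16.3 points (-26.6 to -5.27). A motif match is a match of letters and does not show binding.

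The sites were rarely followed by A-rich genomic sequence, from which an oligo(dT) primer can start by mistake. Only 3 of 394 members (0.761%) had 7 or more A in the next 10 nt or 6 A in a row, against 1.41% of 3′ UTR clusters and 2.51% of the 917 clusters in introns that met no noncoding exon. The base at the dominant site was A in 92.0% of intron members and 91.5% of 3′ UTR clusters, but in 41.8% of members at a coding end, a difference from 3′ UTR clusters of -49.7 points (-60.0 to -38.7). The exact base of these sites thus differed from that of other clusters, and their placement turns on 1 to 24 nt. With the dominant site moved 1 nt upstream, 367 clusters met the rule, and 341 of them were among the 394.

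Most members ended where an annotated noncoding transcript ends. The site was in the last exon of the nearest noncoding transcript for 361 of 394 members, and within 24 nt of its annotated end for 265 (67.3%, 62.5 to 71.7). For comparison, 61.1% of 3′ UTR clusters lay within 24 nt of the end of a coding transcript. NMD members met their own end in 82.4% of cases (71.6 to 89.6), and retained-intron members in 52.4% (43.7 to 61.0). Retained-intron members were mostly in introns (83 of 124), as were members with an undefined coding sequence (130 of 197). Of 68 NMD members, 28 were far past the coding end and 12 in introns. Intron members lay towards the gene start, at a median of 32.1% of the gene's length, with 98 of 226 within the first 25% of it and 35 past 75%. No matching position is given for other intron clusters, so this is not shown to be particular to members.

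Members took 0.952% of the listed tags in KYSE30 control cells, 0.939% in KYSE30 cells with l-lactate, 1.16% in TE-1 control cells and 1.12% in TE-1 cells with l-lactate. Within a line the control value was slightly higher, and the intervals were 0.945 to 0.959 against 0.931 to 0.946 in KYSE30 and 1.15 to 1.16 against 1.11 to 1.13 in TE-1. The order in KYSE30 depended on the placement, since it reversed to 0.255% in control and 0.258% in l-lactate cells with the whole span outside coding exons, and to 0.547% and 0.557% with the site 1 nt upstream. The intervals cover counting error only, and each condition has 1 library, so the spread between cultures is unknown. The 79 members at a coding end carried 72.7% to 73.9% of these tags. Without them, members took 0.248% in KYSE30 control, 0.247% in KYSE30 l-lactate, 0.310% in TE-1 control and 0.306% in TE-1 l-lactate libraries. The level of a member, as the mean of 4 libraries, had a median of 4.56 RPM over all members, 11.8 RPM at a coding end, 3.15 RPM in introns and 5.63 RPM far past the end, against 14.4 RPM for 3′ UTR clusters and 2.61 RPM for other intron clusters.

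**Figure D2:**
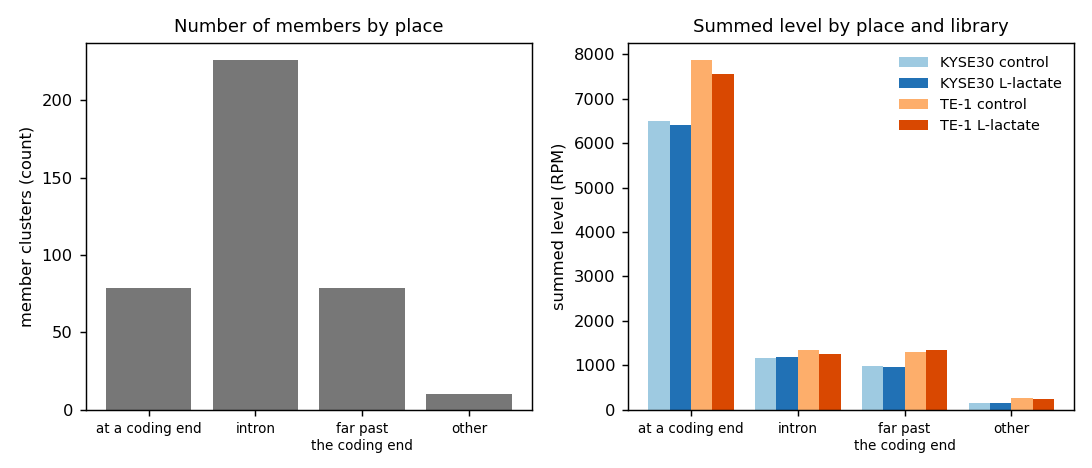
Number of members (left) and their summed level in RPM in each of the 4 libraries (right), by place relative to the protein_coding transcripts of the gene. Intron members were the most numerous (226), while the 79 members at a coding end held 6414 to 7871 RPM per library.

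Of the 394 members, 219 were listed in all 4 libraries, 36 in 3, 102 in 2 and 37 in 1. The 45 members listed in both KYSE30 libraries and in no TE-1 library, and the 55 listed in both TE-1 libraries and in no KYSE30 library, made up most of the 102. Those in all 4 made up 55.6% of members, against 70.0% of all clusters with sequence and 77.5% of 3′ UTR clusters. The share was 45.1% in intron members, near the 41.5% of other intron clusters, and 79.7% in members at a coding end. The 45 and 55 members of 1 line are given without a matching count over all clusters. Members were narrower than 3′ UTR clusters but not than other intron clusters. The median interquantile width was 3 nt in members, 5 nt in 3′ UTRs and 2 nt in other intron clusters. In the same order, 90% of clusters spanned at most 14, 129 and 12 nt.

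The 2 strongest members were in ribosomal protein genes and sat at a coding end. RPS25, a small-subunit protein, had 2026 RPM in KYSE30 control, 2051 in KYSE30 l-lactate, 3664 in TE-1 control and 3452 in TE-1 l-lactate cells. Its site was 3 nt past the end of the coding transcript and was the only cluster of the gene. RPL10A, a large-subunit protein, had 1855, 1723, 1742 and 1599 RPM in the same order, with its site 1 nt past the coding end. For these genes the member is the main end of the gene's RNA in these data, and the tags cannot tell a coding from a noncoding transcript.

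**Figure D3:**
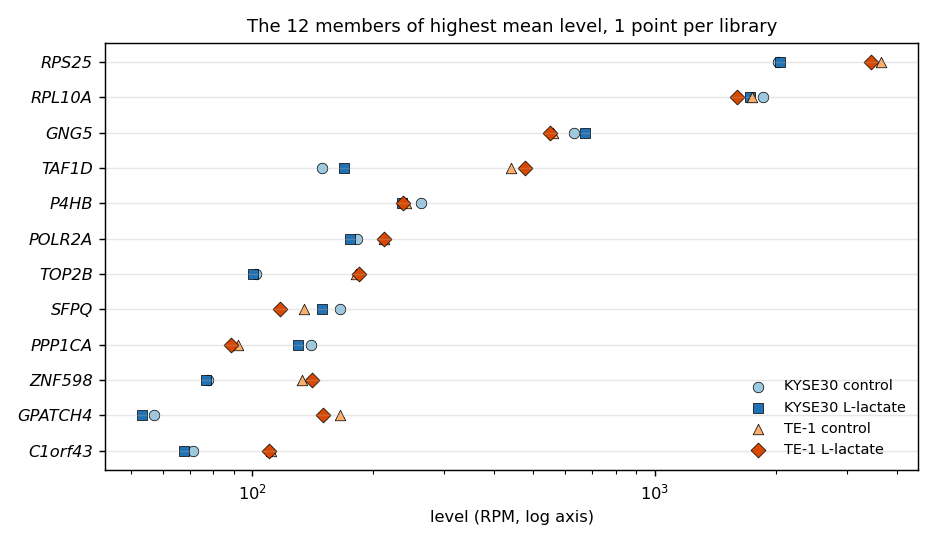
Level in RPM (log axis) of the 12 members with the highest mean level, with 1 point for each library. The points of the 2 lines overlap for RPL10A and P4HB, lie higher in TE-1 for RPS25, TAF1D, POLR2A, TOP2B, ZNF598, GPATCH4 and C1orf43, and lie higher in KYSE30 for GNG5, SFPQ and PPP1CA.

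Among the other strong members at a coding end, those of GNG5, P4HB, TOP2B, PPP1CA and ZNF598 were likewise the only cluster of their gene. GNG5, a G protein gamma subunit, had 631 and 672 RPM in KYSE30 control and l-lactate cells and 560 and 551 RPM in those of TE-1. P4HB, a protein disulfide isomerase of the endoplasmic reticulum, ranged from 236 to 262 RPM over the 4 libraries. TOP2B, a type II DNA topoisomerase, had 102 and 100 RPM in KYSE30 and 181 and 184 RPM in TE-1, and its signal was AUUAAA rather than AAUAAA. PPP1CA, a catalytic subunit of protein phosphatase 1 found with the 3′ end processing complex, was higher in KYSE30 (140 and 130 RPM) than in TE-1 (92.3 and 88.7 RPM). ZNF598, a ubiquitin ligase for collided ribosomes, was lower in KYSE30 (77.6 and 76.7 RPM) than in TE-1 (133 and 141 RPM). C1orf43, 14 nt past a coding end, had 71.2 and 67.9 RPM in KYSE30 and 111 and 110 RPM in TE-1, and it was 1 of 2 clusters of its gene, with 68.2% and 71.0% of the gene's RPM in KYSE30 and 76.9% and 85.7% in TE-1. For these genes other than P4HB the levels in the libraries of the 2 lines did not overlap.

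Far past the coding end, members could be the main end of a gene. TAF1D, a subunit of the RNA polymerase I selectivity factor, ended 5286 nt past its last coding end, at the end of the NMD transcript TAF1D-202 (exon 10 of 10). It had 149 and 169 RPM in KYSE30 control and l-lactate cells and 439 and 477 RPM in TE-1, which was 81.4% to 83.8% of the gene's RPM in each library. SFPQ, a splicing and paraspeckle protein, ended 6556 nt past its coding end in exon 3 of 3 of SFPQ-203. POLR2A, the largest subunit of RNA polymerase II, had its only cluster 434 nt past the coding end. This site lay in an exon that continues a coding exon, with 182 and 175 RPM in KYSE30 and 213 and 213 RPM in TE-1. HNRNPU, a nuclear matrix RNA-binding protein, ended 9651 nt past the coding end in a retained-intron transcript with 27.6 and 21.2 RPM in KYSE30 and 73.1 and 59.0 RPM in TE-1, which was 3.35% to 6.29% of its gene. GPATCH4 was not in this place, since it has no protein_coding transcript in the annotation, only a loss-of-function form. Its member had 57.1 and 53.4 RPM in KYSE30 and 165 and 150 RPM in TE-1.

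In 219 members of genes with at least 2 clusters and over 5 RPM in every library, the member held a median of 9.37% of the gene's RPM (quartiles 3.58% and 23.4%), and 23 held more than 50%. The median was 25.9% at a coding end, 9.86% far past it and 6.69% in introns. A further 100 members were the only cluster of their gene, 47 of them at a coding end. Of the intron members, CSNK2A2, a catalytic subunit of casein kinase 2, had the largest share among genes above 20 RPM, at 94.1% and 93.6% in KYSE30 control and l-lactate cells and 94.1% and 93.8% in TE-1. Its gene had 2 clusters and both were members, so the rest of its RPM was in the other member. NUB1, a regulator of NEDD8 conjugates, ended in the middle of the gene (53.1% of its length) in an NMD transcript, with 75.6% and 74.5% of the gene's RPM in KYSE30 and 79.0% and 80.9% in TE-1. HPS1, which acts in lysosome-related organelles, ended at 14.04% of the gene's length and held 61.5% to 87.9%. These shares count tags at the 3′ end and carry no correction for length.

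COA1, a cytochrome oxidase assembly factor, DRG2, a GTPase, and CAMTA1, a transcription activator, were, besides C1orf43, the members at a coding end among the 8 with the highest shares in genes above 20 RPM with at least 2 clusters. DRG2 held 83.1% to 85.8% of its gene in the 4 libraries. COA1 held 80.8% and 86.0% in KYSE30 control and l-lactate cells and 65.4% and 71.0% in TE-1. CAMTA1 held 74.4% and 71.6% in KYSE30 and 49.1% and 47.5% in TE-1, so that the 2 lines did not overlap.

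The lines differed at many members. A limma fit on log2(RPM + 1) with treatment as a block, over 15221 clusters with a mean of at least 2 RPM, tested 299 members. Of these, 91 (30.4%) were higher in KYSE30 and 103 (34.4%) were higher in TE-1 at a Benjamini-Hochberg adjusted p of at most 0.05, and 67 and 74 of them passed 2-fold. Over all clusters tested, 34.4% were called higher in KYSE30 and 33.6% higher in TE-1, so the members' shares were near those of clusters in general. The median log2 difference, KYSE30 minus TE-1, was -0.15 in members and 0.01 over all clusters. By place, 25 of 72 tested members at a coding end, 49 of 159 in introns and 15 of 59 far past the end were higher in KYSE30, and 26, 52 and 21 were higher in TE-1. Each line is represented by 2 libraries that differ in treatment, so the p-values measure the spread between these libraries and not between cultures. The fit also called clusters that were not listed in either library of the other line, whose values there were taken as 0. These made up 26 of the 91 and 34 of the 103, and their p-values are not given here. Over the 219 members listed in all 4 libraries, 66 (30.1%) were called higher in KYSE30 and 69 (31.5%) higher in TE-1, against 33.6% and 33.5% of 12344 such clusters. With no treatment term, 86 and 102 members were called. With no treatment term and 1 library fewer, 42 or 39 were called higher in KYSE30 without its l-lactate or control library, and 40 or 41 higher in TE-1 without its l-lactate or control library. These fits assume that the line with a single library varies like the other line.

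**Figure D4:**
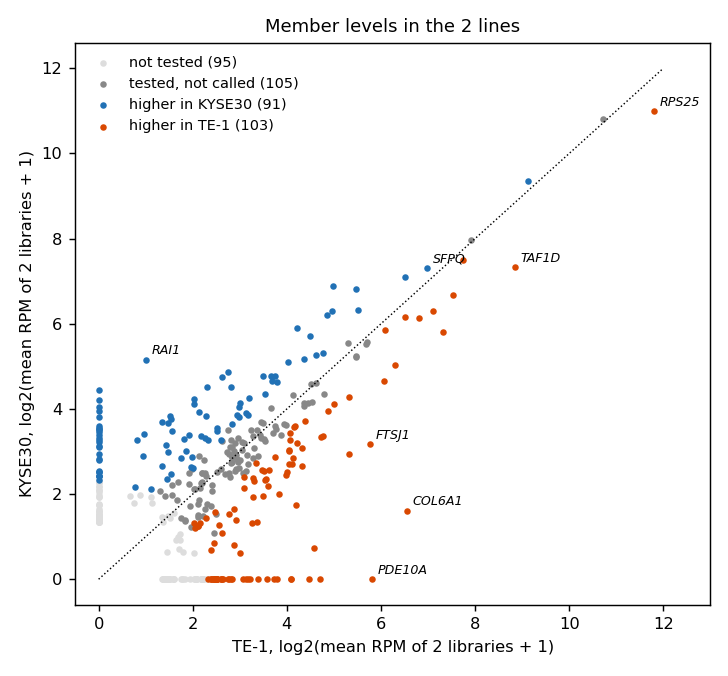
Mean level of each member in KYSE30 against TE-1 as log2(RPM + 1), with the 91 members called higher in KYSE30 in blue, the 103 called higher in TE-1 in orange, 105 tested and not called in dark grey and 95 not tested in light grey. Points on an axis were not listed in that line, as for PDE10A in KYSE30.

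The 5 members with the largest fitted difference towards TE-1 were in COL6A1, PDE10A, TPM2, SPON2 and KDM6A. COL6A1, a collagen VI chain, had 2.42 and 1.67 RPM in KYSE30 control and l-lactate cells and 85.9 and 101 RPM in TE-1, a log2 difference of -4.96 ± 0.19 (SE, limma, adjusted p = 5.02e-05). PDE10A, a cyclic nucleotide phosphodiesterase, had no listed value in KYSE30 and 65.0 and 44.8 RPM in TE-1, at an intron site at 10.1% of the gene's length. TPM2, a tropomyosin, SPON2, a secreted matrix protein, and KDM6A, a histone H3K27 demethylase, were likewise not listed in KYSE30 and had 28.7 and 21.7, 22.4 and 19.7, and 15.4 and 16.4 RPM in TE-1. For the 4 genes after COL6A1 the values are a description only, since the clusters passed the filter through TE-1 alone, and no fold or p-value is given against a line in which the cluster is not listed. PDE10A held 4 members, all in introns of the coding transcripts, each with AAUAAA and none listed in KYSE30. The whole gene also differed for COL6A1, TPM2, PDE10A and SPON2. Clusters of COL6A1 summed to 3.77 and 3.34 RPM in KYSE30 control and l-lactate cells and to 89.8 and 106 RPM in TE-1. Those of TPM2 summed to 1.21 and 2.65 RPM against 293 and 273 RPM. No cluster of PDE10A or SPON2 was listed in KYSE30. For these genes the member values do not show a different choice of end.

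Of the 5 members with the largest fitted difference towards KYSE30, 4 were in introns. RAI1, a transcription regulator, had 32.1 and 37.4 RPM in KYSE30 control and l-lactate cells, 2.02 RPM in TE-1 control and no listed value in TE-1 l-lactate cells. NADSYN1, the NAD synthetase, ended 4056 nt past a coding end with 21.0 and 20.8 RPM in KYSE30. FBXO32, a muscle-type ubiquitin ligase subunit, had 17.8 and 17.4 RPM, BCAR3, an adaptor protein, had 11.99 and 19.1 RPM, and CCR3, a chemokine receptor, had 13.3 and 15.6 RPM in KYSE30. None of these last 4 was listed in TE-1, and their values are likewise a description with no p-value. Here too the whole gene was lower in TE-1 for RAI1, NADSYN1 and FBXO32. Clusters of RAI1 summed to 50.1 and 51.6 RPM in KYSE30 control and l-lactate cells and to 6.16 and 4.25 RPM in TE-1. Those of NADSYN1 summed to 49.2 and 47.2 RPM against 5.58 and 5.43 RPM. FBXO32 had 67.1 and 59.9 RPM in KYSE30, none listed in TE-1 control and 1.535 RPM in TE-1 l-lactate cells.

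These level differences often went with the rest of the gene. Of 63 members called higher in KYSE30 whose gene had at least 2 RPM elsewhere, the rest of the gene was higher in KYSE30 for 50 and lower for 13. Of 77 called higher in TE-1, the rest of the gene was higher in TE-1 for 61 and lower for 16. The called members include some that were not listed in the other line. No matching count over all called clusters was made, so these counts do not show a trait particular to members. The share of the gene held by the member was higher in KYSE30 by 10 percentage points or more in both treatments for 23 of 219 members (10.5%, against 9.33% of 6871 clusters) and higher in TE-1 for 22 (10.05%, against 9.29%). Of these, 17 and 17 were listed in both lines.

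SFPQ was a member whose share and gene level went apart. The site had 165 and 149 RPM in KYSE30 control and l-lactate cells and 134 and 117 RPM in TE-1, while the whole gene had 408 and 416 RPM in KYSE30 and 570 and 578 RPM in TE-1. The member thus held 40.5% and 35.8% of SFPQ in KYSE30 and 23.6% and 20.3% in TE-1. Its level was higher in KYSE30 by 0.32 ± 0.07 on the log2 scale (SE, limma, adjusted p = 0.00970). FTSJ1, an RNA methyltransferase gene chosen here after its values were seen, shows the other pattern. Its intron member had 8.08 and 7.94 RPM in KYSE30 and 56.6 and 50.2 RPM in TE-1 (log2 difference -2.59 ± 0.12, limma adjusted p = 8.23e-05), with shares of 25.4% and 23.7% against 23.2% and 18.9%.

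In a few genes the share held by a member differed widely between the 2 lines. These were chosen after their values were seen, as the largest share differences. The member of EIF2AK4, the GCN2 kinase, held 64.3% and 69.3% of the gene in KYSE30 and was not listed in TE-1, where the gene had 6.74 and 9.68 RPM. SIKE1, a suppressor of IKK-epsilon, showed the opposite, with 32.1% and 28.8% in KYSE30 and 65.6% and 60.9% in TE-1. NADSYN1 held 3 members. The one in the first part of the gene had 21.1% and 14.5% of the gene in KYSE30 and 79.3% and 65.2% in TE-1, where the gene had under 6 RPM, and the other 2 were not listed in TE-1.

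The study asked how l-lactate changes poly(A) site use. Member levels moved little within a line. Of 176 members with a mean of at least 5 RPM in KYSE30, none rose or fell by 2-fold on the log2(RPM + 1) scale, against 0.288% and 0.236% of 11439 clusters. Of 178 in TE-1, 1 rose and none fell, against 0.363% and 0.195% of 11300 clusters. That one was PRSS21, a serine protease gene, with 4.52 RPM in control and 12.04 RPM in l-lactate cells. The central 90% of log2 changes in members ran from -0.51 to 0.56 in KYSE30 and from -0.49 to 0.49 in TE-1, and over all clusters from -0.44 to 0.45 and from -0.40 to 0.48.

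Over both lines together, no member and no cluster was called for l-lactate. The limma fit with the line as a block called 0% of 15221 clusters as higher and 0% as lower, with a lowest adjusted p of 0.118 among all clusters and 0.564 among members. At an unadjusted p under 0.05, 18 of 299 members (6.02%) were higher and 13 (4.35%) were lower with l-lactate, against 5.29% and 3.51% of all clusters. The member of lowest p, LEPROT, was lower with l-lactate, at 10.8 and 5.02 RPM in KYSE30 control and l-lactate cells and at 3.37 RPM and not listed in those of TE-1 (limma adjusted p = 0.564). With 1 library per condition in each line, this contrast rests on 4 libraries.

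The share of the gene held by the member changed by 10 percentage points or more in a small fraction of members, near that of all clusters. In KYSE30, it rose in 14 and fell in 15 of 247 members (5.67% and 6.07%), against 5.87% and 5.95% of 7414 clusters. In TE-1, it rose in 11 and fell in 20 of 254 members (4.33% and 7.87%), against 6.37% and 6.21% of 7412 clusters. The median change was 0.03 points in KYSE30 and -0.10 points in TE-1. Of the members called, 10 of 29 in KYSE30 and 9 of 31 in TE-1 were not listed in 1 of the 2 libraries. With 1 library on each side, these calls are differences between libraries with no replicate check.

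Of the 219 members compared in both lines, 5 passed 10 points in the same direction in both (2 rises and 3 falls), and over all clusters 1.92% of 6871 did. IRAK4, a kinase of interleukin-1 and Toll-like receptor signalling, rose from 59.3% to 72.7% in KYSE30 and from 62.9% to 78.5% in TE-1. VTI1A, a SNARE protein, went from 46.5% to 57.7% and from 49.5% to 63.7%. RGS20, a regulator of G protein signalling, went down from 65.0% to 51.6% and from 61.4% to 37.0%. KLHL18 went down from 45.3% to none listed in KYSE30 and from 32.1% to 18.3% in TE-1, and RABL2A from 21.4% to none listed and from 69.5% to 34.1%. These 5 genes had 5.43 to 30.5 RPM in all, so that a share rests on few tags.

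**Figure D5:**
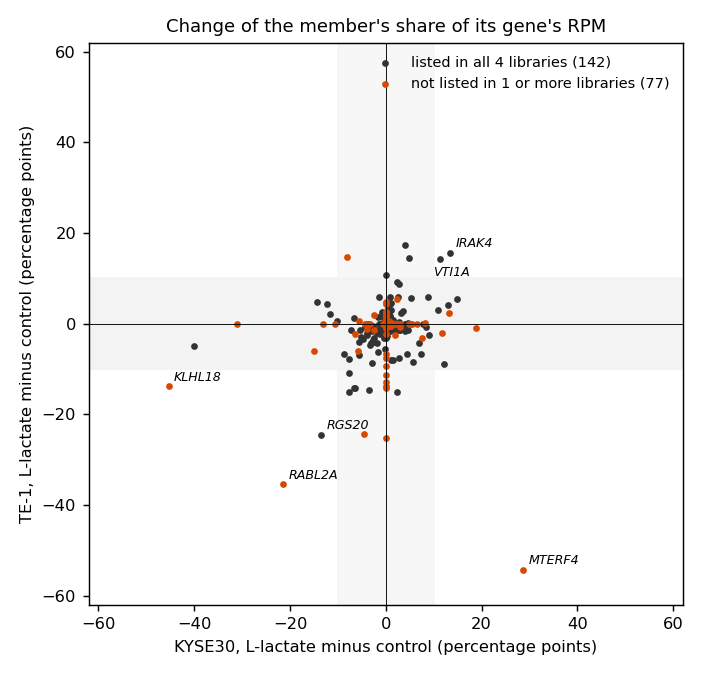
Change of the member's share of its gene's RPM with l-lactate, in percentage points, in KYSE30 (horizontal) and TE-1 (vertical) for 219 members, of which 142 were listed in all 4 libraries (black) and 77 were not (orange). Most points lie inside the grey bands of 10 points either way, and MTERF4 lies in opposite directions in the lines.

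In genes above 20 RPM in all libraries, the 6 largest differences of like sign in both lines were smaller. The difference, l-lactate minus control, was 5.21 points in KYSE30 and 5.67 in TE-1 for COA1, 14.9 and 5.45 for HPS1, 4.77 and 14.4 for PYGL, and 8.79 and 5.88 for PHF20L1. It was 12.97 and 4.19 points for OXR1, an oxidation resistance gene, and 3.53 and 2.87 for PCBD1, a pterin dehydratase. PYGL, the liver form of glycogen phosphorylase, had 3.64 and 6.13 RPM at its intron site in KYSE30 control and l-lactate cells and 8.76 and 13.9 RPM in TE-1. Each of these 6 had a higher share with l-lactate in both lines, and only HPS1 and OXR1 in KYSE30 and PYGL in TE-1 passed 10 points.

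The 6 largest differences towards the control were of similar size. They were -7.67 and -7.75 points for PHF20, a chromatin reader, -6.51 and -14.2 for ANKS6, a ciliary protein, and -7.72 and -10.8 for ZNF330. They were -15.0 and -6.12 points for AMPD2, an AMP deaminase, -5.82 and -6.02 for MAPK12, a p38 kinase, and -5.49 and -3.94 for DHX30, an RNA helicase. Of these, AMPD2 in KYSE30 and ANKS6 and ZNF330 in TE-1 passed 10 points. ANKS6 had 27.1 and 20.9 RPM in KYSE30 and 15.8 and 9.92 RPM in TE-1, and AMPD2 was not listed in TE-1 l-lactate cells. The 12 members were ranked by the smaller of their differences, so their like sign was set by the choice, and no test is given.

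The dominant site of a member seldom moved with l-lactate. Of 160 members above 5 RPM in both KYSE30 libraries, 152 kept the same base, and 1 moved by more than 24 nt (0.625%, against 1.43% of 10849 clusters). Of 165 in TE-1, 160 kept the same base and none moved past 24 nt, against 1.24% of 10769 clusters. The one was UNK, an RNA-binding zinc finger gene, whose dominant site lay 117 nt downstream in l-lactate cells, with 35.2% of the cluster's RPM at the dominant site in control and 47.4% in l-lactate cells.

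Gene groups held few members, and across all 10229 genes with a cluster 3.59% had one. Of 36 SR protein and hnRNP genes with a cluster, 4 had a member (HNRNPU, HNRNPA3, HNRNPR and SRSF5), with 5 members between them. The stronger member of HNRNPU was called higher in TE-1 (limma adjusted p = 1.90e-04) and that of HNRNPR was listed in TE-1 alone, while the log2 difference of HNRNPA3 was -0.45 and did not pass (limma adjusted p = 0.0835). Of 52 other splicing factors and kinases 3 had a member, namely RBM39, ZRANB2 and PRPF38B. RBM39, a splicing coactivator, had an NMD member with 4.71 and 4.18 RPM in KYSE30 and 10.6 and 19.1 RPM in TE-1, which held 2.07% to 8.14% of the gene. None of the members of these 2 groups changed its gene share by 10 points with l-lactate.

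Of 82 cytosolic ribosomal protein genes 3 had a member, RPS25, RPL10A and RPL7A. The intron member of RPL7A had 1.08 to 3.66 RPM and held at most 0.06% of the gene. Of 26 genes for 3′ end processing factors, PPP1CA alone had one, and none of 15 NMD and exon junction factor genes and none of the 9 factors followed in the study did. Of 37 tRNA synthetase genes, SARS1 and HARS1 had an intron member, the first with 1.08 RPM and none listed in KYSE30 against 7.02 and 7.09 RPM in TE-1 and the second listed only in KYSE30 (4.44 and 5.02 RPM). Of 22 receptor tyrosine kinase genes, EGFR had an intron member with 4.58 and 4.88 RPM in KYSE30 and none listed in TE-1, which was 0.508% and 0.538% of the gene in KYSE30.

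Of 62 DNA repair genes, FANCA, CHEK2 and ERCC6 had a member. FANCA, of the Fanconi anaemia core complex, ended 19 nt past the end of a short coding transcript and had 7.68 and 5.71 RPM in KYSE30 and 41.3 and 37.1 RPM in TE-1, with shares of 31.1% and 28.5% against 55.4% and 54.9%. Of 296 zinc finger genes 10 had a member, 8 were tested, 1 was called higher in KYSE30 and 5 higher in TE-1, against 34.4% and 33.6% of all clusters tested, and nothing is read from so few. ZNF783 ended 12314 nt past its coding end and held 57.3% and 53.3% of the gene in KYSE30 and 29.8% and 27.7% in TE-1. Of 26 glycolysis and lactate genes, PDK2, a kinase that inhibits pyruvate dehydrogenase, alone had a member, with 4.98 and 2.51 RPM in KYSE30 and 3.08 and 2.48 RPM in TE-1. No group had a member called for l-lactate by limma.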

How the data were processed

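PAS-seq libraries of KYSE30 and TE-1 cells were prepared with a stranded kit, aligned to GRCh38 with HISAT2 and clustered with CAGEr by the authors, who discarded sites of low level and joined neighbouring clusters. The submitters' processing notes name GRCh38.p14. The deposited values are called TPM by the authors and are RPM, the tags of a cluster per 1000000 tags of the library, with no correction for length. Every value was a whole multiple of 1 step per library, which gave the number of tags used for Wilson and Newcombe intervals at 95% and for Fisher's exact test. These intervals and Fisher's test cover counting error only and not the spread between cultures. The interquantile width is deposited in nt. Start positions were converted to count from 1.

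Clusters were placed by the dominant site on GENCODE 44, and unlisted values were taken as 0. Members and gene lists were chosen with earlier results of these data known. Levels were compared as log2(RPM + 1), a scale that understates changes of low clusters, with limma 3.58.1 (trend) in R 4.3.3 over all clusters with a mean of at least 2 RPM, or, within a line, as a fold of 2 or more at a mean of at least 5 RPM with no test. Gene shares used genes with at least 2 clusters and more than 5 RPM. The tests were tried on simulated data first, with a preset spread for limma and counting error alone for gene shares. That spread was not estimated from these libraries, so the trials do not give the error rates of the calls made here. Sequences were read with pysam 0.24.0.

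Genes named are the 12 members of highest mean RPM, the 8 of highest gene share, up to 6 rises and 6 falls of gene share of like sign in both lines (genes above 20 RPM), up to 5 line differences in each direction and up to 4 members of each list. Other genes named, such as those behind a count of 5 or fewer, were chosen after their values were seen. Alternatives changed the placement, filters, thresholds, pseudocount, scaling and motif window. Placement 1 nt upstream, and leaving out members at a coding end or before A-rich sequence, and the l-lactate fits with no line term and the line fit of all libraries with no treatment term, were chosen after seeing the data.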

Additional observations from a re-analysis of the deposited data

Results flagged for a closer look

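The member of MTERF4, a mitochondrial transcription termination factor family gene, changed its share of the gene in opposite directions in the 2 lines, and this difference was not tested. With l-lactate the share rose by 28.7 percentage points in KYSE30, from not listed to 3.48 RPM, and changed by -54.2 points in TE-1, from 3.08 RPM to not listed. The gene had 5.08 to 12.1 RPM in the 4 libraries, and the member lay 11551 nt past the coding end in a retained-intron transcript. No other of the 219 members compared in both lines passed 10 points in opposite directions.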

How the results depend on the processing

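The number of members was 337 to 377 under the stricter placements, 367 with the site 1 nt upstream, 315 without members at a coding end and 249 with a minimum of 5 RPM. Members' percentage of listed tags, in the order KYSE30 l-lactate, KYSE30 control, TE-1 l-lactate and TE-1 control, was 0.920, 0.934, 1.09 and 1.12 when the dominant site of every library had to meet the rule. It was 0.258, 0.255, 0.310 and 0.316 with the whole span outside coding exons, 0.557, 0.547, 0.758 and 0.781 with the site 1 nt upstream, and 0.247, 0.248, 0.306 and 0.310 without members at a coding end. AAUAAA or AUUAAA preceded 85.8% and any of 12 hexamers 97.0% of members. Members with rises and falls of gene share numbered 4 and 4 in KYSE30 and 1 and 5 in TE-1 for genes above 20 RPM, 31 and 32, and 26 and 41, at 5 points, and 5 and 4, and 4 and 8, at 20 points. They numbered 9 and 7, and 5 and 10, with Fisher's exact test at an adjusted p of at most 0.01, and 7 and 9, and 7 and 12, with clusters listed in both libraries. Fisher's test set the tags of 1 library against those of another, so it covers counting error only. Rises and falls past 2-fold were 21 and 20 in KYSE30 and 21 and 19 in TE-1 with no minimum level. The counts of members under these other settings are given without the share over all clusters, and nothing is read from them about members. With clusters listed in both libraries, 1 member rose in KYSE30 and 3 in TE-1, and with a pseudocount of 0.5, 1 fell in KYSE30. Members higher in KYSE30 by gene share numbered 10 for genes above 20 RPM and 10 at 20 points, and those higher in TE-1 10 and 9. With no treatment term, limma called 86 members higher in KYSE30 and 102 higher in TE-1, and with no treatment term and without 1 library in turn it called 39 to 66 and 40 to 74. The fewest were called in a line when 1 of its own libraries was left out (42 without KYSE30 l-lactate and 39 without KYSE30 control, 40 without TE-1 l-lactate and 41 without TE-1 control), and these fits assume that the lone library varies like those of the other line. The l-lactate contrast called 0 members under the 6 other settings of pseudocount, filter, trend and scaling, with no line term, and with no line term and without each library in turn. With the line term, 3 libraries leave no residual degrees of freedom. A count model (edgeR) was not run because the values are RPM and clusters below about 1 RPM carry no value, and the tags derived from them served for intervals and Fisher's test alone. Depth limits all values near 1 RPM, where a cluster rests on 8 to 11 tags.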
